A study of Mus musculus with 22 samples.

Results

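Transcripts of 10 genes of branched-chain amino acid breakdown were followed in lung metastases of mice, out of 19505 genes on the array. The genes are Bckdk, Ppm1k, Bcat1, Bcat2, Bckdha, Bckdhb, Dbt, Ivd, Mccc1 and Mccc2, matched by symbol. Bckdk was selected on its difference between phenformin and PBS in control metastases, where it lay among the genes nearest to passing the test, and the rest were chosen as members of its pathway. Each gene was read by 1 probe set, and 10 of the 10 were bright enough in at least 5 arrays to enter the tests.

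The cells were NMuMG mouse mammary epithelial cells carrying ErbB2, a growth-promoting receptor kinase, and all 4 groups share that background. Of the 22 arrays, 6 came from NMuMG-ErbB2/PGC-1alpha metastases under phenformin, 6 from NMuMG-ErbB2/PGC-1alpha metastases under PBS, 5 from NMuMG-ErbB2/VC (control) metastases under phenformin and 5 from such control metastases under PBS. The cells overexpressing PGC-1alpha, a transcriptional coactivator that promotes mitochondrial biogenesis, or their controls were given through the tail vein, and phenformin, a biguanide drug known to inhibit complex I of the respiratory chain, was given for 1 week. The metastases were cut from lung sections by laser capture, and 10 ng of RNA was labelled per sample. The labels give neither the strain and age of the mice, the promoter behind PGC-1alpha, the number of clones in each line, nor the number of animals behind the arrays. If several samples share an animal, the p-values given here are too small, and they measure the spread between samples only.

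Leucine, isoleucine and valine first pass their amino group to a ketoglutarate acceptor through a branched-chain aminotransferase, in the cytosol (Bcat1) or in mitochondria (Bcat2). The resulting keto acids are committed to oxidation by the mitochondrial branched-chain keto acid dehydrogenase, whose catalytic parts are encoded by Bckdha, Bckdhb and Dbt. The kinase encoded by Bckdk phosphorylates and inactivates this complex, and the phosphatase encoded by Ppm1k reactivates it, so the flux depends on protein phosphorylation as well as on transcript levels.

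The 250 bases before the annotated start of Bckdk and Ppm1k, the opposed kinase and phosphatase of the complex, are shown. Phenformin minus PBS in control metastases was 0.93 for Bckdk and 0.01 for Ppm1k, as log2 differences. That comparison chose Bckdk, and a link between it and these sequences was not tested. They are from RefSeq (GRCm38.p6), 5′ to 3′ on the strand of the gene. The Bckdk stretch is chr7:127903823-127904072 on the plus strand, and the Ppm1k stretch is chr6:57535488-57535737 on the minus strand. Capitals mark the CCAAT box, which reads ATTGG on the opposite strand, and in Bckdk also TACAANTCC, the core of an element known to bind the factor ZNF143.
Bckdk: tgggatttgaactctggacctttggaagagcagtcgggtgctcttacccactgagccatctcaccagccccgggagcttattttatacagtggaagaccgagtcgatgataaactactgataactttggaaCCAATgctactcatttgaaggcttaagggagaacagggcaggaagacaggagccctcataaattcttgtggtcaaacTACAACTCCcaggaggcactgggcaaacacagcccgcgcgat
Ppm1k: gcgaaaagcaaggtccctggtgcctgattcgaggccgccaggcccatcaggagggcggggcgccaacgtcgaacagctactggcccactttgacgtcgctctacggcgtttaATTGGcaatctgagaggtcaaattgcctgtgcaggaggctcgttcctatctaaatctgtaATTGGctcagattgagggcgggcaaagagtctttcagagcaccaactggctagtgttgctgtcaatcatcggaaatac

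Bckdk has its CCAAT box 119 bases before the start and its ZNF143 core 42 bases before it, counted to their first bases, whereas Ppm1k has CCAAT boxes in reverse at 138 and 78 bases. Of the 10 genes, 9 matched a promoter entry, with 12 entries in all. A CCAAT box on either strand stood in 7 of the 12, namely 1 entry each of Bcat1, Bckdhb, Bckdk, Ivd, Mccc1, Mccc2 and Ppm1k, against 33.8% of 32851 mouse promoter stretches of the same length. The ZNF143 core, searched for on both strands after the Bckdk sequence had been seen, stood in 1.42% of the stretches and in 1 of the 12. On either strand, the E box CACGTG stood in Mccc2 (6.02% of all stretches), while the estrogen-related receptor element AAGGTCA (4.08%) and the ATF4 and C/EBP element TGATGCAA (0.791%) stood in 0 of the 12. These matches are descriptions of letters, and binding was not measured here.

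Values are log2 array signals, so a difference of 1 is a doubling of the signal, and levels of different genes cannot be set against each other because each has its own probes. Array medians lay between 6.55 and 6.64, pairs of arrays correlated at 0.927 to 0.98, and the SD of genes within groups had a median of 0.252. The 10 genes were dim: 1 of their 220 values lay above the 95th percentile of its array's negative controls (8.13 on average), as did the mean of 30.9% of the tested genes, and 218 lay above the median negative control. Ppargc1a, the gene of PGC-1alpha, averaged 8.64 ± 0.79 and 8.90 ± 0.37 in PGC-1alpha metastases under phenformin and PBS (SD, n = 6 each), against 8.04 ± 0.39 and 7.54 ± 0.60 in control metastases (n = 5 each). The difference was 1.36 ± 0.31 (SE) under PBS (limma adjusted p = 0.0198) and 0.59 ± 0.31 under phenformin (adjusted p = 0.166). Whether the probe set reads the introduced sequence is not known.

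The captured tissue held transcripts of lung as well as of tumour epithelium. Krt8 and Krt18, keratins of simple epithelium, lay at 12.13 to 12.45 and 12.03 to 12.83 over the 22 arrays, and Epcam, an epithelial adhesion molecule, at 6.44 to 7.97. Sftpc, a surfactant protein gene of alveolar type 2 cells, lay at 13.1 to 13.67, and Ager, of alveolar type 1 cells, at 10.41 to 11.25. Scgb1a1, a secretory gene of airway club cells, ran from 7.18 to 12.45, and the heart muscle gene Myh6 from 4.91 to 9.03. The mean of 3 heart muscle markers was 9.22 in array 3 of control metastases under phenformin and 7.38 to 7.58 in the other arrays of that group. That array had the lowest Bckdk of its group, and without it phenformin minus PBS in control metastases was 1.05 for Bckdk and −0.45 for Dbt. This was the largest Bckdk difference when 1 array was left out, and the smallest was 0.81, without control PBS array 1. The Dbt difference then ran from −0.50 to −0.43. A score over 28 lung markers, each centred on its mean, averaged −0.04 in PGC-1alpha metastases under phenformin, −0.31 in PGC-1alpha metastases under PBS, 0.15 in control metastases under phenformin and 0.27 in control metastases under PBS. A score over 19 immune markers averaged −0.11, −0.09, 0.05 and 0.19 in the same order of groups. Both scores were thus lower on average in PGC-1alpha metastases, but the immune lists differed. In PGC-1alpha metastases under phenformin and PBS, neutrophil markers averaged 7.46 and 7.61, against 8.02 and 8.33 in control metastases. In the same order, T and NK markers averaged 5.88 and 5.85, against 5.92 and 6.25. Macrophage markers averaged 8.10 and 8.17, against 8.11 and 7.94, and B markers 5.33 and 5.17, against 5.14 and 5.23. In bulk tissue, fewer cells of a type and less RNA per cell cannot be told apart.

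Bckdk, the kinase that switches the dehydrogenase off, was brightest in control metastases under phenformin. It had 7.95, 8.12, 7.33, 7.62 and 7.90 in the 5 control arrays under phenformin, against 6.35, 7.26, 7.31, 6.50 and 6.85 in the 5 under PBS. The 2 groups did not overlap, although the lowest treated array (7.33) lay close to the highest PBS array (7.31). The difference was 0.93 ± 0.18 (SE; 95% interval 0.56 to 1.31), or 1.91-fold. It ranked 1 of 15545 genes by p and 34 by size, values that chose the gene and are given as a description. In this comparison 0% of genes passed an adjusted p under 0.05, 9.64% had an unadjusted p under 0.05, and 0.534% had treated arrays wholly above the PBS arrays.

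In PGC-1alpha metastases Bckdk had a lowest, median and highest value of 7.01, 7.18 and 7.31 under phenformin, against 7.03, 7.22 and 7.88 under PBS. These ranges overlapped almost entirely, and 5 of the 6 PBS arrays lay at 7.03 to 7.30, with array 5 at 7.88. Phenformin minus PBS was −0.14 ± 0.17 (SE; 95% interval −0.48 to 0.21; limma adjusted p = 0.961), and −0.02 without that PBS array. The difference between the 2 responses, −1.07 ± 0.25 (SE), contains the comparison that chose Bckdk and is a description.

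The 4 group means of Bckdk were 7.17 ± 0.12 in PGC-1alpha metastases under phenformin, 7.30 ± 0.30 in PGC-1alpha metastases under PBS, 7.79 ± 0.31 in control metastases under phenformin and 6.85 ± 0.44 in control metastases under PBS (SD, n = 6, 6, 5 and 5). Both PGC-1alpha groups lay between the control groups. PGC-1alpha minus control was −0.62 ± 0.18 (SE) under phenformin, where every PGC-1alpha array lay below every control array, as for 4.94% of genes. The highest PGC-1alpha array (7.31) lay close to the lowest control array (7.33), however. Under PBS PGC-1alpha minus control was 0.45 ± 0.18, with overlapping groups. These line comparisons use the same control arrays that chose the gene, so no test is given. In order of level, the lead of control metastases under phenformin over PGC-1alpha metastases under PBS was larger than either SD. The other neighbouring means, of PGC-1alpha metastases under PBS, PGC-1alpha metastases under phenformin and control metastases under PBS, differed by less than the larger of their SDs.

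**Figure D1:**
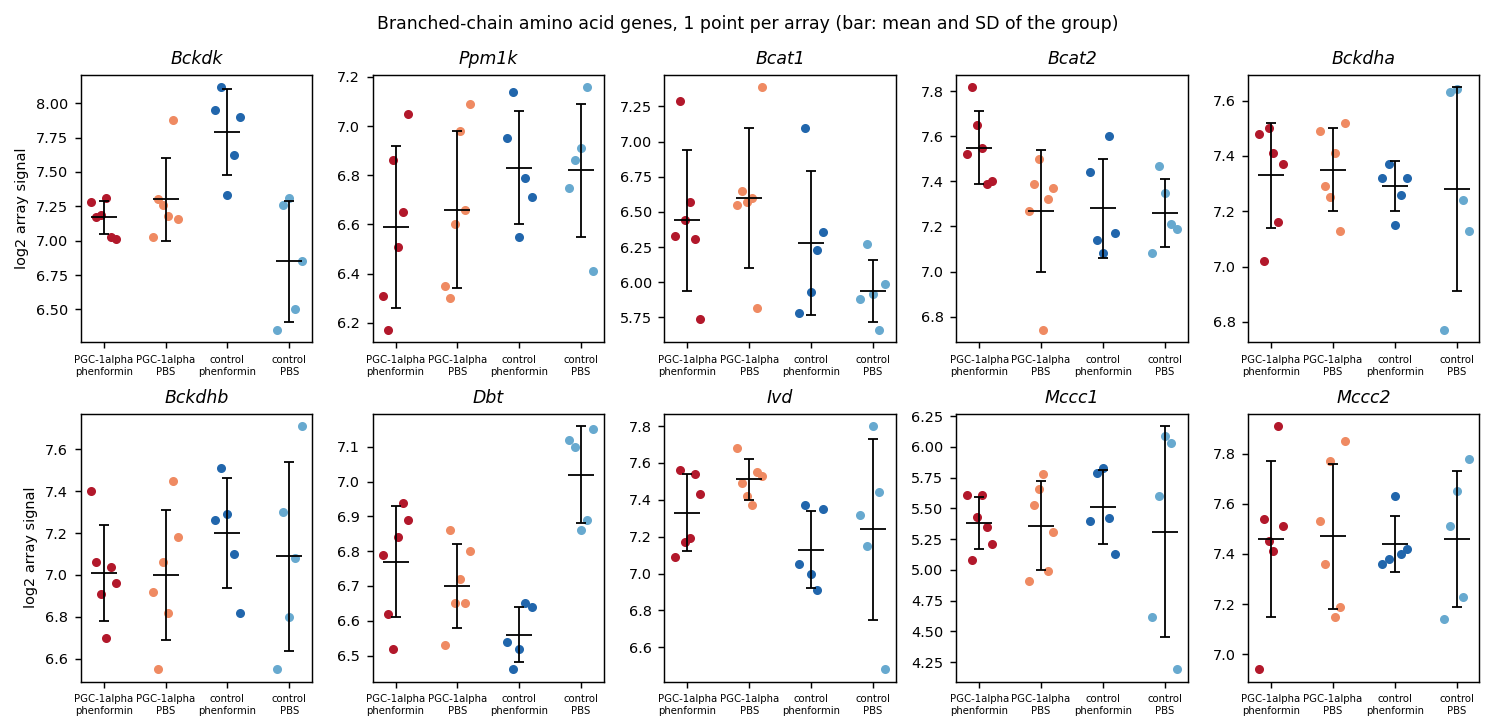
Log2 array signal (vertical axis, its own scale for each gene) of the 10 genes in the 4 groups, with 1 point per array and black bars for the group mean and SD. Bckdk is highest in control metastases under phenformin (7.33 to 8.12) and Dbt highest in control metastases under PBS (6.86 to 7.15), while none of the other 8 genes separates fully in any of the 4 comparisons.

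Ppm1k, the phosphatase that opposes Bckdk, stayed within a narrow span of group means. It averaged 6.59 ± 0.33 in PGC-1alpha metastases under phenformin, 6.66 ± 0.32 in PGC-1alpha metastases under PBS, 6.83 ± 0.23 in control metastases under phenformin and 6.82 ± 0.27 in control metastases under PBS. All 4 groups overlapped. Phenformin minus PBS was 0.01 (95% interval −0.36 to 0.38) in control metastases, the contrast in which Bckdk was 0.93. PGC-1alpha minus control was −0.23 ± 0.17 under phenformin (SE; limma adjusted p = 0.329) and −0.15 ± 0.17 under PBS (adjusted p = 0.69).

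None of the 9 genes other than Bckdk passed limma's adjusted p under 0.05 between the lines, for phenformin in PGC-1alpha metastases, or in the interaction, which contains the comparison that chose Bckdk. In PGC-1alpha against control metastases under PBS the count was 0 of 9, with 2 at an unadjusted p under 0.05, where 2.93% of all 15545 genes passed and 18% had such an unadjusted p. Under phenformin it was 0 of 9, with 2 at an unadjusted p under 0.05, where 21.1% of all genes passed and 37.1% had such an unadjusted p. For phenformin in PGC-1alpha metastases it was 0 of 10 with Bckdk included, with 1 at an unadjusted p under 0.05 (4.34% of all genes), and for the interaction 0 of 9, with 1 (11.1% of all genes); 0% of all genes passed in either. The comparisons share groups of arrays, so they are not independent of one another.

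Dbt, the transacylase core of the dehydrogenase, had the smallest spread of the 10 genes, with a within-group SD of 0.13 that is smaller than that of all but 2.6% of tested genes. It had 6.54, 6.46, 6.52, 6.65 and 6.64 in control metastases under phenformin, against 7.12, 7.10, 6.86, 6.89 and 7.15 in control metastases under PBS. The groups did not overlap, and phenformin was lower, as for 0.746% of genes. The difference was −0.46 ± 0.10 (SE; 95% interval −0.68 to −0.25), or 1.38-fold lower, and ranked 14 by p. It comes from the contrast that chose Bckdk and is a description.

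In PGC-1alpha metastases Dbt had a lowest, median and highest value of 6.52, 6.82 and 6.94 under phenformin, against 6.53, 6.69 and 6.86 under PBS. The groups overlapped, and the difference was 0.07 ± 0.09 (SE; 95% interval −0.13 to 0.26; limma adjusted p = 0.966). The 2 responses differed by 0.53 ± 0.14 (SE; unadjusted p = 0.000985), which did not pass over all genes (limma adjusted p = 0.228). PGC-1alpha minus control was 0.21 ± 0.10 under phenformin (adjusted p = 0.129) and −0.32 ± 0.10 under PBS (adjusted p = 0.0798), and neither passed.

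Bckdk and Dbt took opposite positions among the groups. Control metastases under phenformin had the highest mean Bckdk and the lowest mean Dbt, control metastases under PBS had the lowest mean Bckdk and the highest mean Dbt, and the PGC-1alpha groups lay between on both genes. Over the 22 arrays the correlation of Dbt with Bckdk was −0.64, which placed Dbt at 15519 of 15544 genes ordered from the highest correlation down. That figure holds the group differences that chose Bckdk. After the 4 group means were removed, r was −0.15 and Spearman's rho −0.24 (permutation p = 0.508 and 0.291, adjusted p = 0.973 and 0.975 over 45 gene pairs), and r was −0.05 without the 2 arrays farthest from the Bckdk median.

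**Figure D2:**
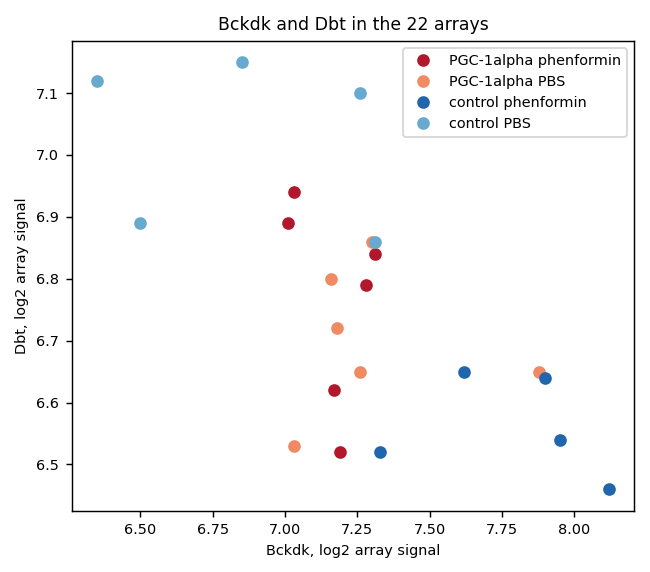
Dbt (vertical axis) against Bckdk (horizontal axis), both as log2 array signal, with 1 point per array coloured by group. Control arrays under phenformin (Bckdk 7.33 to 8.12, Dbt 6.46 to 6.65) lie to the lower right of those under PBS (6.35 to 7.31, 6.86 to 7.15). The PGC-1alpha groups lie between by their means. Their arrays overlap both control groups on both genes (Bckdk 7.01 to 7.88, Dbt 6.52 to 6.94), with 1 array under PBS at a Bckdk value of 7.88.

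The other catalytic subunits of the dehydrogenase gave small differences. Bckdha, the subunit that Bckdk phosphorylates, averaged 7.33 ± 0.19 and 7.35 ± 0.15 in PGC-1alpha metastases under phenformin and PBS, against 7.29 ± 0.09 and 7.28 ± 0.37 in control metastases under phenformin and PBS. Its largest tested difference was 0.07 (95% interval −0.21 to 0.35), between the lines under PBS. Bckdhb, its partner in the decarboxylase, averaged 7.01 ± 0.23 and 7.00 ± 0.31 in PGC-1alpha metastases under phenformin and PBS, against 7.20 ± 0.26 and 7.09 ± 0.45 in control metastases. Between the lines it differed by −0.19 (95% interval −0.56 to 0.19) under phenformin and −0.09 (−0.47 to 0.28) under PBS. All 4 groups overlapped for both genes, and their within-group values spread most in control metastases under PBS.

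Bcat1, the cytosolic aminotransferase, was among the most variable of the 10 genes, with a within-group SD of 0.46. Under PBS it had a lowest, median and highest value of 5.82, 6.59 and 7.39 in PGC-1alpha metastases, against 5.88, 6.27, 5.92, 5.66 and 5.99 in the control arrays. In PGC-1alpha metastases 5 of the 6 arrays lay above the highest control array. The difference was 0.66 ± 0.25 (SE; unadjusted p = 0.0156) and did not pass over all genes (limma adjusted p = 0.16). It was 0.39 ± 0.33 with the lung marker score as a covariate and 0.13 ± 0.32 with the immune marker score. Neither score overlapped between the lines under PBS, so score and line cannot be told apart there. Within groups Bcat1 and the immune score had r = −0.47 and rho = −0.53 (permutation p = 0.0636 and 0.0228, adjusted p = 0.411 and 0.456 over 20 relations). The part of immune cells in the Bcat1 values was not tested. Under phenformin Bcat1 averaged 6.44 ± 0.50 in PGC-1alpha metastases and 6.28 ± 0.51 in control metastases, a difference of 0.17 ± 0.25 (adjusted p = 0.66).

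Bcat2, the mitochondrial aminotransferase, was highest on average in PGC-1alpha metastases under phenformin. There it had a lowest, median and highest value of 7.39, 7.53 and 7.82, against 6.74, 7.35 and 7.50 in PGC-1alpha metastases under PBS. The groups overlapped, with 4 of the 6 treated arrays above the highest PBS array. The difference was 0.29 ± 0.13 (SE; unadjusted p = 0.03; limma adjusted p = 0.957), and it was 0.18 without the dimmest PBS array. In control metastases Bcat2 averaged 7.28 ± 0.22 under phenformin and 7.26 ± 0.15 under PBS. PGC-1alpha minus control was 0.27 ± 0.13 under phenformin (adjusted p = 0.133) and 0.00 ± 0.13 under PBS (adjusted p = 0.992).

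The leucine-specific steps after the dehydrogenase gave no difference that passed. Ivd, which oxidises isovaleryl-CoA, averaged 7.33 ± 0.21 and 7.51 ± 0.11 in PGC-1alpha metastases under phenformin and PBS, against 7.13 ± 0.21 and 7.24 ± 0.49 in control metastases. Its difference between the lines was 0.20 ± 0.16 under phenformin (SE; limma adjusted p = 0.397) and 0.27 ± 0.16 under PBS (adjusted p = 0.401). The PBS difference was 0.08 without the dimmest control PBS array, at 6.48. Mccc2, the subunit of methylcrotonyl-CoA carboxylase without the biotin carrier, had group means of 7.44 to 7.47 and differed between the lines by 0.02 (95% interval −0.30 to 0.34) under phenformin and by 0.01 (−0.31 to 0.34) under PBS. Mccc1, the biotin-carrying subunit, lay above its array's median negative control in 20 of 22 arrays, whereas each other gene did in 22. Its control PBS arrays ran from 4.19 to 6.09, wider than its other groups. Its 95% intervals between the lines were −0.67 to 0.41 under phenformin and −0.48 to 0.60 under PBS.

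**Figure D3:**
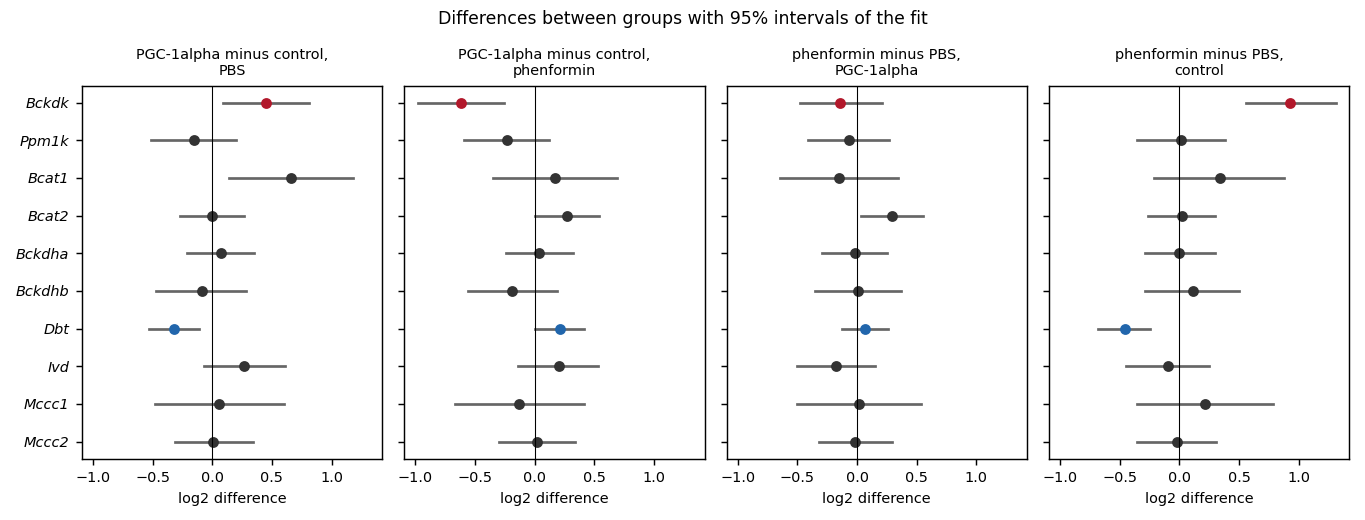
Log2 differences (horizontal axis) of the 10 genes in 4 comparisons, as points with 95% intervals from the fit, with Bckdk in red and Dbt in blue. In control metastases (right panel) Bckdk lies at 0.93 and Dbt at −0.46, the comparison that chose Bckdk. In the panel of phenformin in PGC-1alpha metastases the interval of Bcat2 excludes 0, and in the panel of the lines under PBS those of Bcat1 and Dbt do. In the panel of the lines under phenformin the intervals of Bcat2 and Dbt end at 0.00 after rounding. The Bckdk intervals between the lines, 0.09 to 0.81 under PBS and −0.98 to −0.26 under phenformin, are descriptions. They use the control arrays that chose the gene.

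Within groups the 10 genes did not move together beyond what the test could show. Of the 45 pairs, 27 had a positive correlation of residuals from the group means, and r ran from −0.43 (Bckdhb with Ivd) to 0.52 (Bckdha with Mccc1). For r, 0 pairs had an unadjusted permutation p under 0.05, and 0 passed after adjustment. Bckdk correlated most with Bckdha, its substrate, at r = 0.45 and rho = 0.35 (permutation p = 0.121 and 0.157). These correlations share arrays of small RNA input and mixed cell content, as the marker levels show.

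The genes whose levels followed Bckdk most closely over the 22 arrays were Stam2 (r = 0.82), Dnajc6 (0.80), Selenoo (0.78), Sstr2 (0.77) and Stard3 (0.76). The lowest correlations were those of Patl2 (−0.73), Gm13283 (−0.72) and Gjd3 (−0.70). None of the other 9 genes was near the top, where Bckdhb ranked highest at 2128 of 15544 with r = 0.31. With group means removed, the highest were Ric1 (0.78), Tom1 (0.77), Alg2 (0.75), Slc35e1 (0.74) and Tarbp2 (0.73), so the 2 orderings share none of their leading 5 genes. Over the 22 arrays Spearman's rho was weaker than r for Dnajc6 (0.55) and Gjd3 (−0.55), while the other leading genes had rho of 0.69 to 0.77. The first ordering holds the group differences that chose Bckdk, and all these values are descriptions of the 22 arrays.

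The wider pathway was read from a list of 54 genes of branched-chain transport, lipoylation, the later steps of each arm, the propionate and cobalamin steps, biotin, leucine sensing, regulators and related kinases, of which 53 were on the array and 50 were tested. In PGC-1alpha against control metastases under phenformin, 3 were higher and 11 lower by limma's adjusted p under 0.05, where 10% of all genes were higher and 11.1% lower. The median difference of the 50 was −0.25, against 0.00 over all genes. Under PBS, 0 were higher and 2 lower (1.21% and 1.72% of all genes), with a median of −0.11 against 0.01. For phenformin against PBS, limma called 0 of the 50 in PGC-1alpha metastases, 0 in control metastases and 0 in the interaction, where 0% of all genes passed in each, and 1, 10 and 9 of the 50 had an unadjusted p under 0.05, beside 4.34%, 9.64% and 11.1% of all genes.

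The split under phenformin depended on scaling: it was 1 higher and 9 lower after quantile normalisation, 2 and 15 with each array centred on its median, and 2 and 9 after cyclic loess. Over all genes it was 1560 higher and 1723 lower as deposited, 1337 and 1096 after quantile normalisation, 1112 and 2203 with centred arrays, and 1035 and 1304 after cyclic loess. The median difference of the list was −0.16 after quantile normalisation, −0.30 with centred arrays and −0.20 after cyclic loess, against −0.25 as deposited. With the immune marker score as a covariate, 3 of the 50 were called, all lower, beside 6.28% of all genes. Mmachc, Hadhb and Pdk3 were the named genes that passed in every one of the alternatives tried, the immune covariate included.

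Among the propionate and cobalamin steps, which finish isoleucine and valine breakdown, 3 of 8 passed as lower in PGC-1alpha than in control metastases under phenformin, beside 11.1% of all genes. Mmachc, which processes cobalamin, averaged 7.55 ± 0.33 in PGC-1alpha metastases and 8.23 ± 0.10 in control metastases under phenformin (SD, n = 6 and 5). The ranges did not overlap, with 8.02 the highest PGC-1alpha value and 8.12 the lowest control value, as for 4.94% of all genes in that direction. The difference was −0.68 ± 0.14 (SE; limma adjusted p = 0.004). Pcca, the biotin-carrying subunit of propionyl-CoA carboxylase, differed between PGC-1alpha and control metastases by −0.80 ± 0.22 under phenformin (SE; limma adjusted p = 0.0152) and by −0.82 ± 0.22 under PBS (adjusted p = 0.0425). The PBS call for Pcca was lost without any one of 7 arrays and with either marker score as a covariate, and the phenformin call with the immune score. Mmadhc, also a cobalamin gene, differed by −0.30 under phenformin (adjusted p = 0.0394), a call lost without any one of 8 arrays, after quantile normalisation or cyclic loess, with only the compared groups, with the replicate block and with either marker score.

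Of 9 tested genes listed with the isoleucine and valine arms, 1 was higher and 2 lower in PGC-1alpha than in control metastases under phenformin. Beside them, 10% of all genes were higher and 11.1% lower. The 2 lower genes, Hadhb and Hadha, encode the trifunctional protein, whose part in these arms was not measured. Apart from these and Acadsb, no tested gene of the list passed, Echs1, Hsd17b10 and Hibadh included (limma adjusted p = 0.0937, 0.518 and 0.232). Acadsb, which dehydrogenates short branched acyl-CoA, averaged 7.94 ± 0.09 in PGC-1alpha metastases and 7.50 ± 0.19 in control metastases, a difference of 0.44 ± 0.12 (SE; limma adjusted p = 0.0145). No array of one line reached the other, with 7.88 the lowest PGC-1alpha value and 7.73 the highest control value, as for 6.07% of all genes in that direction. Hadhb, the thiolase-bearing subunit of the trifunctional protein, averaged 8.57 ± 0.22 in PGC-1alpha metastases and 9.21 ± 0.25 in control metastases under phenformin (difference −0.64, adjusted p = 0.00681). Its partner subunit gene Hadha differed by −0.35 (adjusted p = 0.0487). Dld, the dihydrolipoamide dehydrogenase that the branched-chain complex shares with other keto acid dehydrogenases, averaged 7.17 ± 0.32 in PGC-1alpha metastases and 7.79 ± 0.18 in control metastases (difference −0.62, adjusted p = 0.0157). The Acadsb, Dld and Hadha calls were lost with the immune score as a covariate, and Hadha's also without any one of 15 arrays, after quantile normalisation or cyclic loess, with no filter, with the lung score and with the replicate block.

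Of 9 leucine-sensing genes tested, 1 was higher and 3 were lower in PGC-1alpha than in control metastases under phenformin, beside the same 10% and 11.1% of all genes. Lars, the leucyl-tRNA synthetase, differed between PGC-1alpha and control metastases by −0.72 (limma adjusted p = 0.0063). The Rag GTPase genes Rragc and Rraga, which relay amino acid supply to mTORC1, differed by −0.70 and −0.34 (adjusted p = 0.0117 and 0.0376). Sesn2, a leucine-binding inhibitor of that relay, was higher, at 6.25 ± 0.37 in PGC-1alpha metastases and 5.62 ± 0.51 in control metastases (difference 0.62, adjusted p = 0.0391). The 4 calls were lost with the immune score, Rraga's also without any one of 8 arrays and Sesn2's without any one of 6. Those of Rraga and Sesn2 were lost too after quantile normalisation, after cyclic loess and with only the compared groups, Rraga's also with the replicate block, and Sesn2's with centred arrays and the lung score. Sesn2 lay above the median negative control in 4 of the 5 control arrays under phenformin.

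Slc6a14, a transporter that takes up branched-chain and other amino acids, was lower in PGC-1alpha metastases under PBS, at 5.07 ± 0.58 against 6.02 ± 0.40 in control metastases (difference −0.96; limma adjusted p = 0.0226), a call lost without any one of 3 arrays, with only the compared groups in the fit and with either marker score. It lay above the median negative control in 3 of the 6 PGC-1alpha arrays under PBS and in 5 of the 5 control arrays, so the size of its difference is uncertain. Slc7a6, another transporter of the list, differed by −0.48 under phenformin (adjusted p = 0.0453), a call lost without any one of 8 arrays, after quantile normalisation or cyclic loess, with no filter, with array weights, with the replicate block and with the immune score. Mlxipl, a glucose-responsive factor reported to raise Bckdk transcription in rodent liver, averaged 5.50 ± 0.24 in PGC-1alpha metastases and 5.04 ± 0.26 in control metastases under phenformin (difference 0.45, adjusted p = 0.0267). It lay above the median negative control in 6 of the 6 PGC-1alpha arrays but in 3 of the 5 control arrays under phenformin, so the size of its difference is uncertain. The Mlxipl call was lost without any one of 4 arrays, after quantile normalisation and after cyclic loess, and with either marker score. Pdk3, a pyruvate dehydrogenase kinase of the same family as Bckdk, averaged 6.32 ± 0.23 in PGC-1alpha metastases and 7.00 ± 0.30 in control metastases under phenformin (difference −0.68, adjusted p = 0.0103). Of the 4 related kinases, Pdk3 was the one that passed, where 21.1% of all genes passed.

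**Figure D4:**
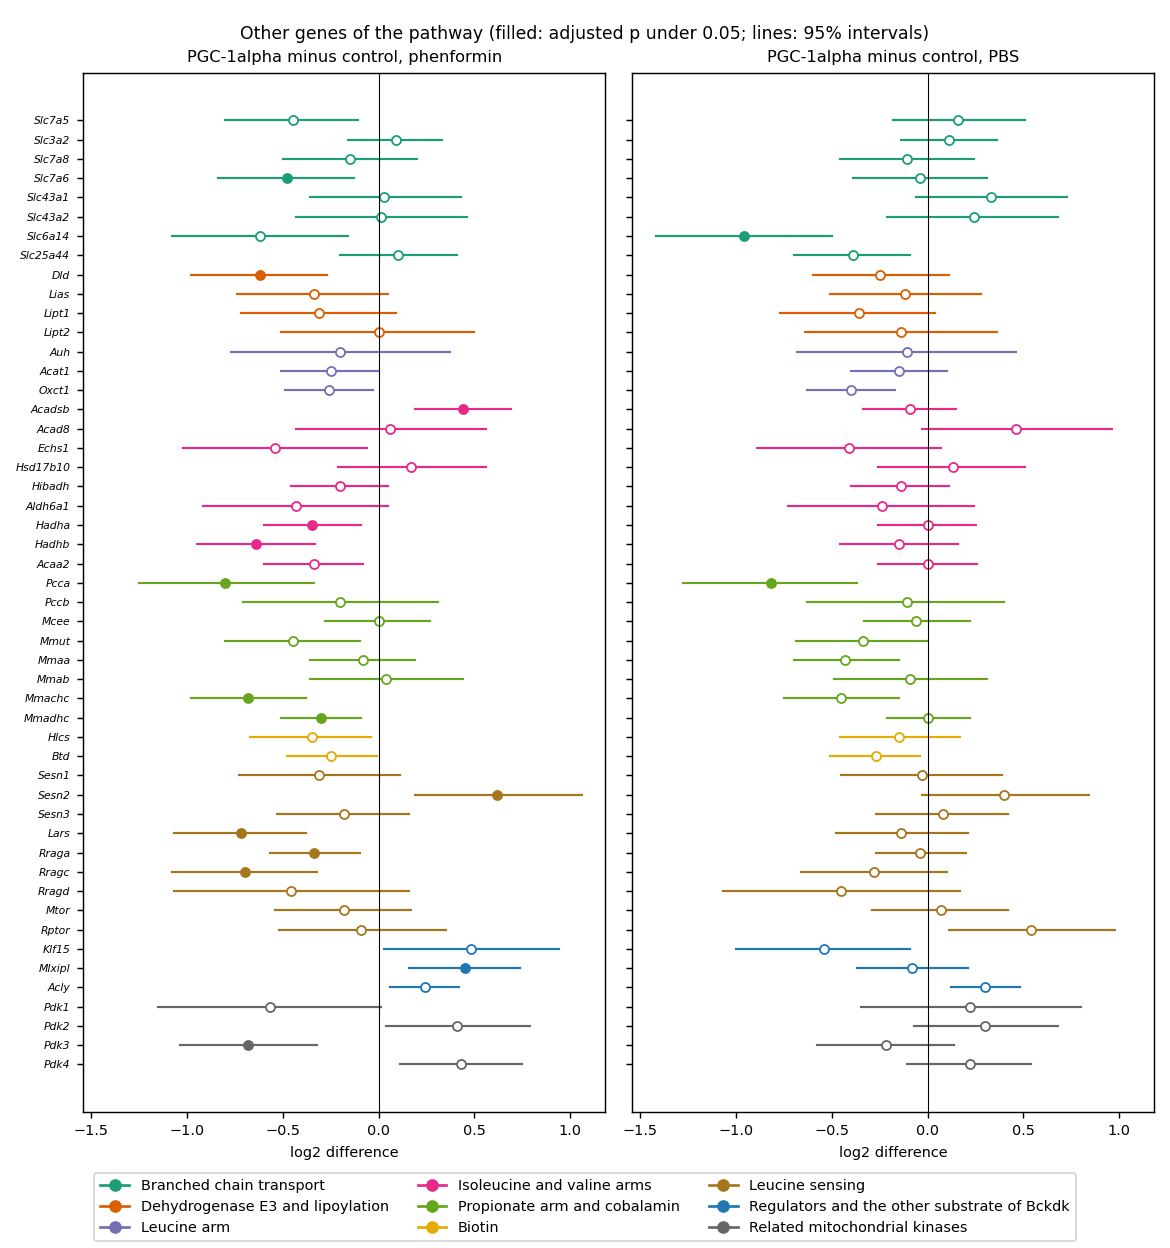
Log2 differences (horizontal axis) of the 50 tested genes of the wider list between PGC-1alpha and control metastases, under phenformin (left panel) and under PBS (right panel), with 95% intervals, coloured by gene group. Filled points have an adjusted p under 0.05, 14 of them under phenformin (3 higher and 11 lower) and 2 under PBS, both lower.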

How the data were processed

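Lung metastases were profiled on 22 arrays in 4 groups. The deposited values are log2 signals that the authors had already normalised, 1 per probe set and array; the software was oligo, per the submitters' processing notes, and its version and method of normalisation are not given in the sources used here. A further deposited table was not used, because its 22 columns match no sample name.

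Of 22206 probe sets that are not controls, 19572 carried 1 symbol in the deposited annotation. The probe set with the highest mean stood for each of 19505 genes, and 15545 genes were tested, those exceeding the 25th percentile of 5 or more arrays. One linear model over all arrays was fitted in R 4.3.3 using limma 3.58.1 (18 residual and 5.67 prior degrees of freedom), with two-sided p-values adjusted by Benjamini-Hochberg over all tested genes and called at 0.05. The script was tested on simulated data. Correlations used residuals from group means and 1e+05 permutations within groups. Figures used Python 3.11.15 and matplotlib 3.10.9. The number of arrays limits the precision.

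The genes, lists and rules were chosen with earlier results of these data known. Named were the 10 genes, at most 12 genes of the wider list that passed in any tested comparison by smallest p, the genes most like Bckdk, and Ppargc1a. Mmadhc, Slc7a6 and Hadha, which also passed, were named after their values were seen. The alternatives for the wider list were added after seeing the data. Erbb2, the gene in both lines, lay at 8.32 ± 0.34 and 8.33 ± 0.22 in PGC-1alpha metastases under phenformin and PBS, against 7.91 ± 0.12 and 8.04 ± 0.25 in control metastases.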

Additional observations from a re-analysis of the deposited data

Results flagged for a closer look

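Of 40 sets of values, 1 gene in 1 group each, 3 held an array that stood far from the others by Dixon's criterion, and chance marks about 1 in 20. Bckdk in PGC-1alpha metastases under PBS had 7.88 in array 5, with the nearest other array at 7.30. Bcat2 in the same group had 6.74 in array 4, with the nearest at 7.27. Mccc2 in control metastases under phenformin had 7.63 in array 3, with the nearest at 7.42.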

How the results depend on the processing

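Under 34 alternatives (22 leaving out 1 array each, and 12 others of filter, scaling, samples in the fit, block, weights, prior, marker scores and probe sets), each of the 50 values of the 10 genes, wherever an alternative gave one, kept its side of the threshold, or, where only described, moved by less than the SD within groups. The adjusted p of Dbt between the lines under PBS ran from 0.0565 to 0.6. For the wider list, with alternatives chosen after seeing the data, the count under PBS was 4 after cyclic loess, 4 with an intensity trend in the prior, 1 with only the compared groups in the fit, 0 with the lung score and 0 with the immune score, and 0 to 4 when 1 array was left out (2 as reported). Under phenformin it was 3 with the immune score and 9 to 17 when 1 array was left out (14 as reported), with 9 reached without PGC-1alpha array 2 or 3 or control array 2 or 5 under phenformin. Over all genes the covariates changed the counts too, to 26 (lung) and 25 (immune) under PBS, against 455, and to 977 (immune) under phenformin, against 3283. Under PBS neither score overlapped between PGC-1alpha and control metastases (lung −0.48 to −0.24 against −0.08 to 0.66, immune −0.26 to 0.05 against 0.14 to 0.25). Score and line thus cannot be told apart there, and calls can be lost because the SE grows. For Dbt under PBS the SE was 0.10 without a score and 0.14 with either. With only the compared groups in the fit the PBS count was 237. Without PGC-1alpha PBS array 1, 2 or 3 it was 206, 303 or 213, and without control PBS array 2 or 5 it was 201 or 202. Without PGC-1alpha phenformin array 2 the phenformin count was 2183. Whether lung or immune cells caused these shifts was not tested. Labels number the samples, and 6 of 21 same-numbered pairs correlated above 0.1 (r −0.19 to 0.31). Without differently numbered pairs beside them, these values cannot show whether the numbers pair samples. With the replicate number as a block, 0 of the 10 genes passed for phenformin in PGC-1alpha metastases, as without it, and 381 genes passed under PBS and 3218 under phenformin between the lines. The block ended the calls of Rraga, Mmadhc, Slc7a6 and Hadha. Signal over background limits all 10 genes, since 1 of their 220 values lay above the 95th percentile of its array's negative controls. In the wider list Lars, Pdk3 and Pcca, among others, had 0 arrays above it in each group. Mccc1, Slc6a14, Mlxipl and Sesn2 were limited further, as in some arrays they did not exceed the median negative control.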
